A study of Mus musculus with 4 samples.

Results

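RNA levels of 10 genes linked to acid and base transport by intercalated cells were measured on 4 two-colour arrays of newborn mouse kidney duct cells. The genes are 3 transcription factor genes (Foxi1, Dmrt2 and Hmx2), 2 ammonia transporter genes (Rhcg and Rhbg), 2 anion exchanger genes (Slc4a1 and Slc26a4) and 3 carbonic anhydrase genes (Car2, Car12 and Car15). They were taken from the 33390 gene names of the array by the RefSeq accession of each probe, through which 11 probes matched, 2 for Car12 and 1 for each of the others. The match of probes to genes used no measured value, but the 10 genes were chosen with earlier results of these data known. The cells were EGFP-positive collecting duct and ureteric bud cells, sorted by flow cytometry on postnatal day 1. Knockout cells came from mice that carried HoxB7CreEGFP and PRR flox/flox, and wild-type cells from CreEGFP-positive PRR+/+ mice, so that Cre and EGFP were present in both genotypes. PRR is the (pro)renin receptor, the product of Atp6ap2 and an accessory protein of the proton pump. The HoxB7 promoter drives Cre in the ureteric bud and the ducts that grow from it, so deletion is limited to that lineage. RNA was pooled. The labels state neither how complete the deletion was nor how many animals made a pool.

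Knockout RNA was labelled with Cy5 on both knockout arrays, against wild-type pool 1 in Cy3 on the array called knockout array 1 here and against pool 2 in Cy3 on knockout array 2. On the self arrays, pool 1 or pool 2 carried both dyes. Each genotype therefore has n = 2 arrays in Cy5, with 1 array for each wild-type pool. Groups follow the source named for each channel. The sample titles give the genotypes the other way round, and under the titles every direction between knockout and wild type would turn. Whether the knockout pools of both arrays came from separate animals is not stated. A p-value therefore reflects only how much these few arrays scatter, which can be technical scatter.

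Intercalated cells keep blood pH steady by moving protons and bicarbonate across the duct wall. In the acid-secreting type, carbonic anhydrase supplies protons to a vacuolar proton pump on the urine side, and the exchanger encoded by Slc4a1 returns bicarbonate to the blood. In the base-secreting type, pendrin, encoded by Slc26a4, passes bicarbonate into the urine in exchange for chloride. The Rh glycoproteins encoded by Rhcg and Rhbg carry ammonia, the main buffer for excreted acid. Foxi1 is the transcription factor on which the intercalated fate depends, and Notch signalling holds duct cells in the principal fate. Slc4a1 and Car2 are also genes of red cells, where they serve carbon dioxide transport.

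The start regions of 4 genes are shown because the measurements turn on them: Rhcg and Dmrt2 had the higher knockout values, Car15 the largest gap between the wild-type pools, and Foxi1 is the regulator of the group. RefSeq promoter windows of assembly GRCm38.p6 were matched for 7 of the 10 genes by symbol, with 8 windows in all, Hmx2 having 2. Rhbg, Slc4a1 and Car2 were not matched. Each sequence is the 250 bases before a transcription start, read 5′ to 3′ on the gene's strand, with capitals for matches to the 6 motifs searched on both strands.
Foxi1, chr11:34208090-34208339, minus strand: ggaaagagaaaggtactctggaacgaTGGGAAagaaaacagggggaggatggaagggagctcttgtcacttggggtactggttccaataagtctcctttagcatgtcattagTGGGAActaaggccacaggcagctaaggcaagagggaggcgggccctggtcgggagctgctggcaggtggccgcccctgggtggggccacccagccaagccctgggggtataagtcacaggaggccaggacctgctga
Dmrt2, chr19:25672161-25672410, plus strand: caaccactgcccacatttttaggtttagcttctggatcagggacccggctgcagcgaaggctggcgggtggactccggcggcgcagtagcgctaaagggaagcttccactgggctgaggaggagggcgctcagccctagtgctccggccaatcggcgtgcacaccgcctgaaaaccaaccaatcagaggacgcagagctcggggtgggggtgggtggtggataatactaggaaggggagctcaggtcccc
Rhcg, chr7:79617658-79617907, minus strand: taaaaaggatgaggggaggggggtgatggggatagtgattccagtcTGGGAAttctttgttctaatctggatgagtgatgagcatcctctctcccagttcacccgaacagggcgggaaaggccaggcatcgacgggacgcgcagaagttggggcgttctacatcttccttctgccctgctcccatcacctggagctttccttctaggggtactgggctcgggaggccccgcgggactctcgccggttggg
Car15, chr16:17838187-17838436, minus strand: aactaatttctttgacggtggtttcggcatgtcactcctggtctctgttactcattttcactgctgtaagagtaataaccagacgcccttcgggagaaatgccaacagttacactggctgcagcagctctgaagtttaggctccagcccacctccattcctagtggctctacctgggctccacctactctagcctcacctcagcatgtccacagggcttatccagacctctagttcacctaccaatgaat
The capitals in Foxi1 and Rhcg are TGGGAA, the core bound by the Notch partner RBPJ, which begins at -224 and -138 from the Foxi1 start and at -204 from the Rhcg start. This motif was present in 21.6% of 32851 windows of the same length. The forkhead core TGTTTA, in 12.0% of all windows, was found in Car12 alone, beginning at -11. Its variant TATTTA, in 12.7%, was found in Hmx2 and Slc26a4. The GATA motif AGATAA (9.99% of windows), the HNF1 motif core GTTAAT (6.43%) and the E-box CACGTG (6.02%) matched none of the 8 windows. A match describes letters in the window, not a site in use. The Rhcg and Dmrt2 windows held 58.4% and 62.4% G or C with 12 and 14 CpG pairs, where the median window had 52.4% and 6. The Car15 window had 4 CpG pairs.

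Foxi1 was dim, and signal was enough for a test in all genes but Hmx2. In Cy5, 18424 to 22713 of 41174 probes were well above background on the 4 arrays, and in Cy3 14936 to 18574 on 3 of them. Cy3 of knockout array 1 held only 28 such probes. Its only use was in the alternative with log ratios of all 4 arrays. The 10 probes of the other 9 genes were well above background in Cy5 on all 4 arrays, and none lay in a dark patch of 390 spots on the pool 1 self array. Markers of the labelled cells were present. All 12 principal cell genes on the array and 15 of 16 ureteric epithelium genes were tested, and Hoxb7, the gene whose promoter drives Cre, stood at 11.36, 11.50, 11.68 and 11.15 on knockout arrays 1 and 2 and in pools 1 and 2. Atp6ap2, the targeted gene, read 8.08 and 7.72 in knockout and 8.38 and 8.51 in wild type, so that knockout was the lower on every array, by -0.55 ± 0.17 (SE; limma adjusted p = 0.805; 2 arrays a genotype). Where its probe lies relative to the deleted part is not known here.

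The first question is whether the regulators of intercalated cells differ in RNA level between genotypes. Levels are log2 Cy5 intensities after background correction and quantile normalization, and a difference is knockout minus wild type. They are compared within a probe only, since probes differ in brightness. In RNA from a mixed population, fewer cells of a type and less RNA per cell cannot be told apart. Foxi1 (chr11:34204341-34208089, GRCm38.p6, as for all positions here) read 7.15 and 6.91 on knockout arrays 1 and 2, 7.06 in pool 1 and 7.10 in pool 2. The wild-type values lay between the knockout values. The difference was -0.06 ± 0.13 (SE; 95% interval -0.40 to 0.29; limma adjusted p = 0.922). Its signal was dim, at 39.0 to 120 intensity units over local background in Cy5, which limits what could be seen.

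Dmrt2, a DM-domain transcription factor gene (chr19:25672394-25679013), read 7.92 and 8.08 in knockout, 7.71 in pool 1 and 7.40 in pool 2. No wild-type value reached either knockout value. The difference was 0.45 ± 0.16 (SE), or 1.36-fold, with an unadjusted p of 0.0382 and a limma adjusted p of 0.805, so Dmrt2 did not pass. Without the pool 1 array it did (0.60, limma adjusted p = 0.0134). Hmx2, a homeobox transcription factor gene (chr7:131548757-131558014), read 6.53 and 6.58 in knockout, 6.66 in pool 1 and 6.49 in pool 2. It was well above background in Cy5 only in pool 1 and in none of the 3 Cy3 channels, so it was not tested. At this signal no difference in Hmx2 was measurable.

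Of the ammonia transporter genes, Rhcg (chr7:79593363-79617657) had the largest difference from the mean of both pools in Cy5 of the 9 tested genes. Without the pool 1 array, or with log ratios of all 4 arrays, Car15 exceeded it in size, at -1.97 against 1.14 and at -1.06 against 0.65. The log ratios include knockout array 1, where Cy3 held almost no signal. Rhcg read 12.36 and 12.65 in knockout, 11.89 in pool 1 and 11.37 in pool 2. The knockout values lay above those of both pools, and the pools also differed from each other. The difference was 0.88 ± 0.22 (SE), or 1.84-fold, with an unadjusted p of 0.0117. After adjustment over all genes it did not pass (limma adjusted p = 0.805), and without the pool 1 array it did (1.14, adjusted p = 0.00361). Rhbg, which encodes the Rh glycoprotein of the blood-facing membrane (chr3:88242874-88254739), read 9.44 and 9.38 in knockout, 9.53 in pool 1 and 9.32 in pool 2. Here the knockout values fell between the pools, and the difference was -0.01 ± 0.13 (SE; 95% interval -0.35 to 0.33; limma adjusted p = 0.984). Principal cell genes were measured beside Rhcg. The summed level of their 12 tested genes was 23454 and 26246 on the knockout arrays, 18779 in pool 1 and 16333 in pool 2, the same order as Rhcg. None of the 12 passed between genotypes. Both knockout values lay above both wild-type values in 8 of 12, against 21.9% of all genes, and below them in 3 of 12 (Kcnj1, Avpr2 and Aqp4), against 17.8%. The part of principal cells in the Rhcg result was not tested.

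The exchangers of the acid-secreting and base-secreting cells were not separated by genotype. Slc4a1 (chr11:102348820-102365281) read 8.04 and 7.65 in knockout, 8.23 in pool 1 and 7.62 in pool 2, with the knockout values between the pools. The difference was -0.08 ± 0.26 (SE; 95% interval -0.75 to 0.60; limma adjusted p = 0.943). Slc26a4 (chr12:31519814-31560055) read 8.40 and 8.16 in knockout, 8.67 in pool 1 and 8.32 in pool 2. Both knockout values were below pool 1, while pool 2 lay between them, and the difference was -0.22 ± 0.18 (SE; 95% interval -0.67 to 0.24; limma adjusted p = 0.805).

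Red cell genes were measured beside Slc4a1. The alpha globin gene Hba-a1 read 13.15 and 12.74 in knockout, 13.35 in pool 1 and 11.85 in pool 2, and the beta globin gene Hbb-bt 13.86, 13.30, 14.16 and 12.57 in the same order. Slc4a1 and both globin probes were thus highest in pool 1, lower on knockout array 2 than on array 1, and lowest in pool 2, although Slc4a1 was nearly as low on knockout array 2. Globin paralogs are near identical, so a probe may read several of them. The summed level of the 7 tested red cell genes was 26177 and 19333 in knockout, 31149 in pool 1 and 11702 in pool 2. Of 19 red cell genes on the array, 10 were above background in no Cy5 channel. Tspan33, a tetraspanin gene of erythroid cells that other cells also use, read 10.07, 10.34, 10.03 and 10.25 and did not follow this order. The part of red cells in the Slc4a1 values was not tested.

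Among the carbonic anhydrase genes, the cytosolic enzyme gene Car2 (chr3:14886269-14900770) read 10.36 and 10.07 in knockout, 10.42 in pool 1 and 9.98 in pool 2. The knockout values again lay between the pools, with a difference of 0.01 ± 0.20 (SE; limma adjusted p = 0.989). Car12, a membrane-spanning form (chr9:66712296-66766845), read 8.78, 8.65, 8.75 and 8.69 in the same order, the narrowest range of the 9 genes. Its difference was -0.0021 ± 0.12 (SE; 95% interval -0.31 to 0.31; limma adjusted p = 0.996). The dimmer Car12 probe read 6.58 and 6.79 in knockout and 6.80 and 6.96 in wild type, a difference of -0.19 with no test of its own.

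Car15, a carbonic anhydrase tethered to the outer membrane face (chr16:17835276-17838186), was measured most unequally. It read 7.98 and 8.04 in knockout, 7.39 in pool 1 and 9.98 in pool 2. The knockout arrays were alike and lay above pool 1 but far below pool 2. The difference from the mean of the pools, -0.68 ± 0.84 (SE; 95% interval -2.88 to 1.53; limma adjusted p = 0.848), therefore describes neither pool. Without the pool 1 array it was -1.97 (limma adjusted p = 1.8e-04) and without the pool 2 array 0.61 (0.250 likewise). Proximal tubule genes were also highest in pool 2. The summed level of the 7 tested was 1931 and 1454 in knockout, 2648 in pool 1 and 22761 in pool 2, so that, unlike Car15, they were lower in knockout than in pool 1. Their part in the Car15 values was not tested.

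**Figure D1:**
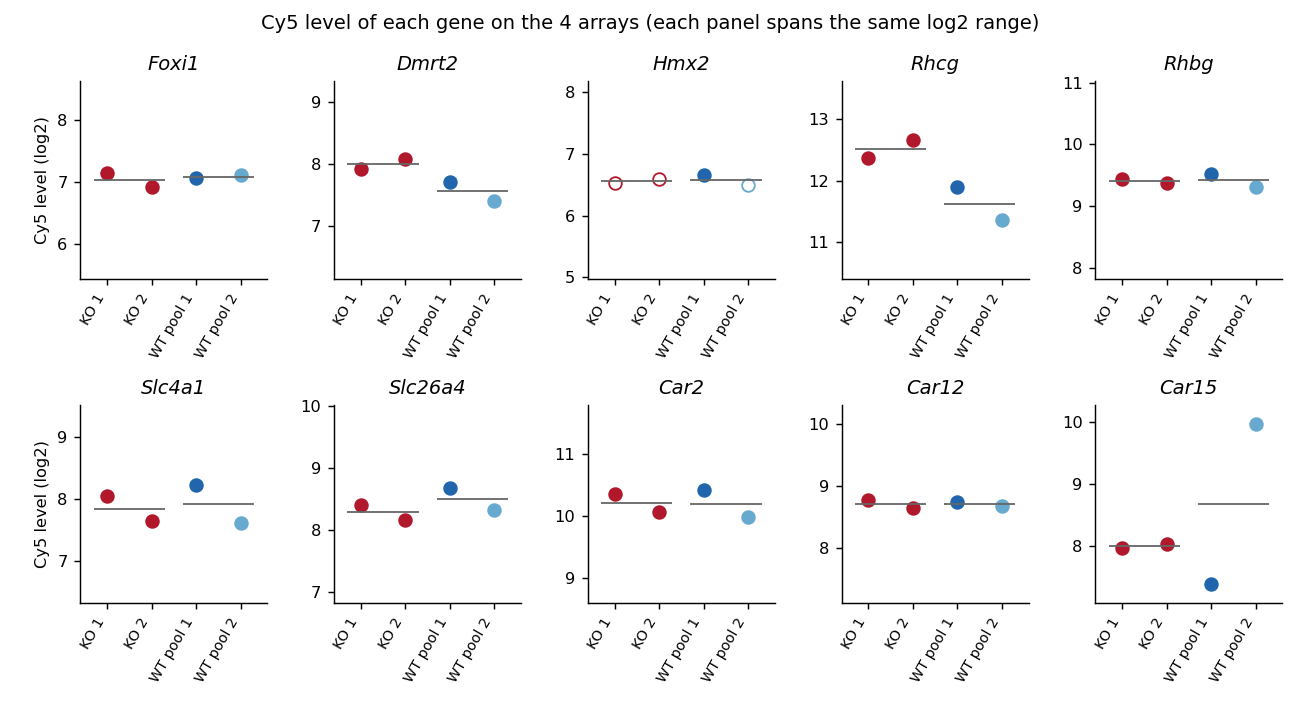
Cy5 level (log2 of normalized intensity) of each of the 10 genes on the 4 arrays. Points are single arrays (KO 1 and KO 2, knockout arrays 1 and 2; WT pool 1 and WT pool 2, self arrays), grey lines are group means, open points are not well above background, and every panel spans the same log2 range. Knockout values lay above both pools in Dmrt2 and Rhcg, and Car15 in pool 2 stood at 9.98 against 7.39 in pool 1.

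Over the group, 0 of 9 tested genes passed at a limma adjusted p under 0.05, as did 0 of all 16015 genes tested (0%). Unadjusted p under 0.05 was reached by 2 of the 9 (Rhcg and Dmrt2) and by 664 of all 16015 genes, a smaller share. Both knockout values lay above both wild-type values in 2 of 9, against 21.9% of all genes, and below them in 0 of 9, against 17.8%. The count above both pools is near its share, and with 9 genes no more is read from any of these counts. With 1 array left out the genotypes did not overlap in 5 of 9 without knockout array 1 (58.7% of all genes), 4 without knockout array 2 (56.9%), 6 without the pool 1 array (85.7%) and 7 without the pool 2 array (77.1%). The median difference of the 9 was -0.01, beside 0.02 for all genes. In 5 of the 9 (Foxi1, Rhbg, Slc4a1, Car2 and Car12) the difference was under 0.1 either way. Arrays centred on their medians moved the median of all genes to 0.33 and that of the 9 to 0.51, with Foxi1, Rhbg, Slc4a1, Slc26a4 and Car12 then above 0, and Rhcg and Dmrt2 at 1.38 and 0.81. The knockout arrays also differed between themselves. Slc4a1 was lower on array 2 by 0.39, Car2 by 0.29, Foxi1 by 0.24 and Slc26a4 by 0.23, and Rhcg was higher there by 0.28, while the SD of this difference over all genes was 0.154.

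Knockout was then set against each wild-type pool, because the pools differed more than the knockout arrays did (SD over all genes 0.477 between pools). Against pool 1, no gene of the group passed, with 7 of 16015 genes (0.0437%) called by limma at an adjusted p under 0.05. Against pool 2, 3 of 9 passed, with 26.2% of all genes called. Rhcg and Dmrt2 were among the 15.7% of genes called higher in knockout and Car15 among the 10.5% called lower. Each of these fits has 1 wild-type array, which is assumed to vary as the knockout arrays do. Both share the knockout arrays, so their values are given side by side only.

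Rhcg stood 1.53-fold over pool 1 (0.62 ± 0.14, SE; limma adjusted p = 0.250) and 2.20-fold over pool 2 (1.14 ± 0.14; adjusted p = 0.00361). It was thus higher than both, and past the threshold against pool 2 alone. Dmrt2 stood 1.22-fold over pool 1 (0.29 ± 0.11; limma adjusted p = 0.338) and 1.52-fold over pool 2 (0.60 ± 0.11; adjusted p = 0.0134). Car15 changed sign between them. It was 1.53-fold higher than pool 1 (0.61 ± 0.10; limma adjusted p = 0.250) and at 0.256 of the level of pool 2 (-1.97 ± 0.10; adjusted p = 1.8e-04). Slc4a1 (-0.38 and 0.23) and Car2 (-0.21 and 0.23) also had opposite signs against pools 1 and 2, and Slc26a4 read -0.39 and -0.04, none past the threshold. Foxi1, Rhbg and Car12 stayed within 0.12 of both pools.

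Knockout array 2 is the only array where knockout and a wild-type pool with signal share spots. There the log2 ratio of knockout over pool 2 was 1.38 for Rhcg, 0.62 for Dmrt2 and -2.04 for Car15. These lie far from the ratios of pool 2 over itself on its self array, 0.10, -0.10 and 0.04, in which only the dyes differ. On the pool 1 self array, Rhcg read -0.04, Dmrt2 -0.25 and Car15 0.05, and the other 6 genes -0.20 (Foxi1) to 0.27 (Car2). Slc26a4 had a ratio of -0.33, Slc4a1 -0.19, Car2 0.20, Car12 -0.11, Foxi1 0.08 and Rhbg 0.00, beside self ratios of 0.06, -0.15, 0.15, 0.02, -0.03 and 0.13. The SD of the ratio over all genes was 0.476 on knockout array 2, 0.0795 on the pool 2 self array and 0.155 on the pool 1 self array. With 1 such array there is no test. In Foxi1, Slc4a1 and Car12 the sign of this ratio was opposite to that of the Cy5 difference of both knockout arrays from the same pool (-0.08, 0.23 and 0.03).

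**Figure D2:**
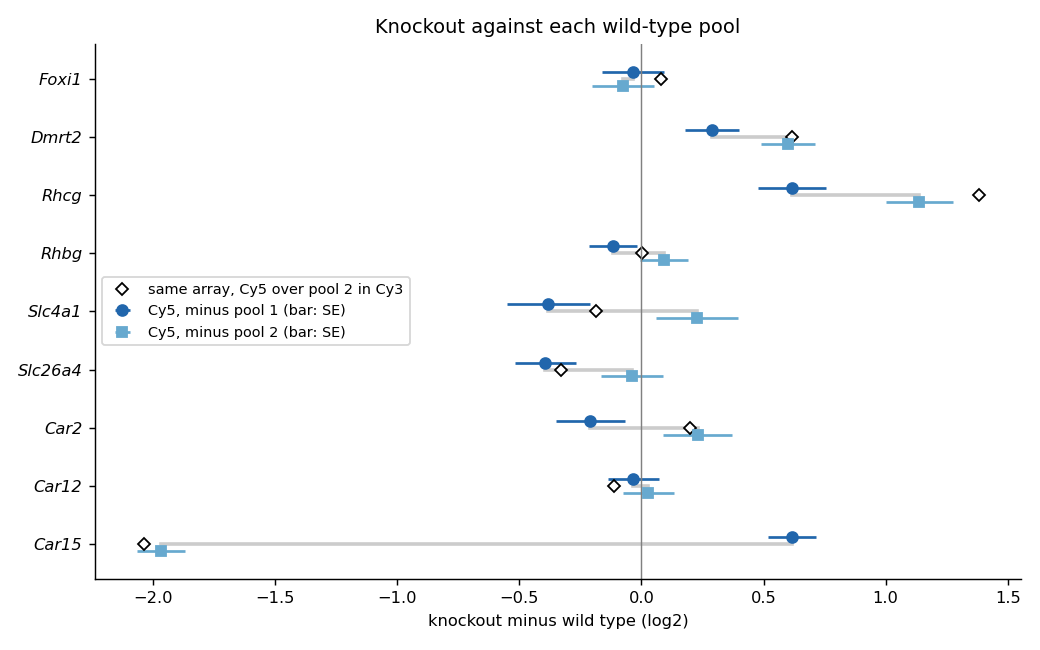
Knockout minus wild type (log2) of the 9 tested genes. Circles and squares are mean Cy5 of the 2 knockout arrays minus pool 1 and minus pool 2 (bars, SE of the fit), and open diamonds are the log2 ratio of knockout over pool 2 on their shared array. Rhcg and Dmrt2 lie right of 0 by all 3 measures, and Car15 lies at 0.61 against pool 1 and at -1.97 and -2.04 against pool 2.

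The pools themselves were compared over the 7 channels with signal, with the dye as a covariate, where pool 1 filled 2 channels and pool 2 filled 3. The replicates are channels of the same pool, so the test speaks of these pools and not of animals. Of the 9 genes tested, 6 differed between the pools at a limma adjusted p under 0.05, beside 48.8% of all 16149 genes, and their pool values did not overlap. Car15 was higher in pool 2, as were 20.9% of all genes, and Rhcg, Slc4a1, Slc26a4, Car2 and Dmrt2 were lower, as were 27.9%. With array as a random block the same count of 6 was called beside 66.6% of all genes. With channels centred on their medians in place of quantile normalization, none of the 9 passed and 1 gene of all did.

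Car15 read 7.13 and 7.08 in pool 1 and 9.43, 9.54 and 9.42 in pool 2, against 7.59 and 7.65 in knockout. The 3 sources of RNA did not overlap, and pool 2 exceeded pool 1 by 2.36 ± 0.07 (SE; limma adjusted p = 1.17e-10), or 5.14-fold. Rhcg read 11.80 and 12.10 in knockout, 11.32 and 11.35 in pool 1 and 10.80, 10.65 and 10.71 in pool 2. These also did not overlap, in the order knockout, pool 1, pool 2, with pool 2 lower than pool 1 by -0.61 ± 0.09 (limma adjusted p = 1.11e-04). Dmrt2 read 7.55 and 7.68 in knockout, 7.38 and 7.66 in pool 1 and 7.13, 7.10 and 7.33 in pool 2. Pool 2 was lowest (-0.36 ± 0.08; limma adjusted p = 0.00357), while pool 1 in Cy3 reached the knockout range, so that Dmrt2 did not separate knockout from pool 1 here.

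Slc4a1 read 7.65 and 7.33 in knockout, 7.81 and 7.98 in pool 1 and 7.30, 7.50 and 7.56 in pool 2. Knockout and pool 2 overlapped, and pool 1 was above both, with pool 2 minus pool 1 at -0.48 ± 0.09 (limma adjusted p = 7.35e-04). Over the same channels Hba-a1 differed by -1.61 ± 0.10 and Hbb-bt by -1.68 ± 0.13, with Alas2, of red cell heme synthesis, at -1.01 ± 0.09. Of the 7 red cell genes tested 4 were called lower in pool 2, against 27.9% of all genes, and 1, the erythroid factor gene Klf1, was called higher (0.20 ± 0.07; limma adjusted p = 0.0324), against 20.9%. Tspan33 was at 0.15 ± 0.08 and the spectrin gene Sptb at -0.07 ± 0.07, neither past the threshold. Klf1 and Sptb were dim, at 6.36 to 6.81 and 6.28 to 6.50 over the 7 channels, which limits what could be seen in them. The part of red cells in these pool differences was not tested. Slc26a4 read 7.96 and 7.75 in knockout, 8.20 and 8.27 in pool 1 and 7.89, 8.05 and 7.87 in pool 2. Pool 1 alone was set apart in Slc26a4 (-0.31 ± 0.08; limma adjusted p = 0.00643). Car2 differed by -0.35 ± 0.08 (limma adjusted p = 0.00432), Foxi1 by -0.14 ± 0.10 (0.275 likewise), Rhbg by -0.07 ± 0.07 (0.463) and Car12 by 0.03 ± 0.07 (0.781).

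**Figure D3:**
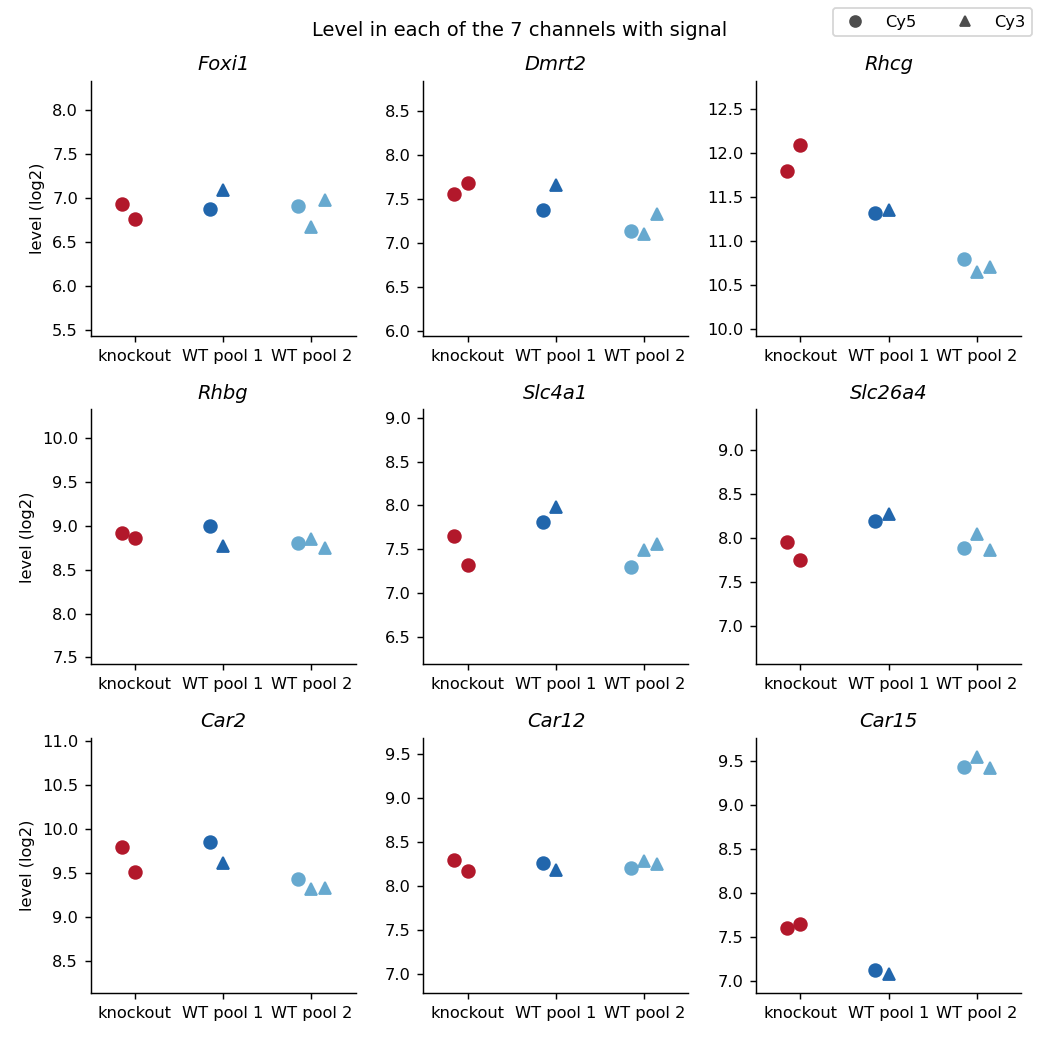
Level (log2 of intensity normalized over 7 channels) of the 9 tested genes by RNA source. Circles are Cy5 and triangles Cy3, each point 1 channel, and every panel spans the same log2 range. Rhcg falls into 3 separate levels, Car15 is high in pool 2 alone, and pool 1 lies above knockout in Slc4a1 and Slc26a4.

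Other genes of the same functions gave a mixed picture. In the comparison of both genotypes none passed in any list, with 0 calls among all genes. Against pool 1 none passed either, with 0.0437% of all genes called. The 5 proton pump subunits that mark intercalated cells gave 1 call higher (all genes, 15.7%) and 2 lower (10.5%) against pool 2. The call higher was Atp6v1c2, at 8.90 and 8.82 in knockout, 8.95 in pool 1 and 8.12 in pool 2 (limma adjusted p = 0.0052). Atp6v1b1, a pump head subunit, read 6.96 and 6.96 in knockout, 6.995 in pool 1 and 8.18 in pool 2, so pool 2 alone stood apart. Beside it, Atp6v0a4 read 7.98, 8.24, 7.65 and 9.05 in the same order and Atp6v1g3 8.86, 9.08, 8.96 and 8.59. Of 15 other intercalated cell genes tested, 5 were called higher (all genes, 15.7%) and 1 lower (10.5%) against pool 2. Spink8, a protease inhibitor gene, read 10.56 and 10.97 in knockout, 9.59 in pool 1 and 8.93 in pool 2, and the water channel gene Aqp6 8.06, 8.15, 7.85 and 7.07. Both had the order of Rhcg, with differences of 1.50 ± 0.27 and 0.64 ± 0.28 (limma adjusted p = 0.805 for each). Insrr, an insulin receptor relative, was at 0.23 ± 0.16 (limma adjusted p = 0.805).

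All 8 other carbonic anhydrase genes tested had a negative difference (median -0.15), 5 of 8 under median centring, and lay below the median of all genes under both. In 5 of the 8 the higher knockout value was below the lower pool, against 17.8% of all genes, and 3 were called lower against pool 2 (all genes, 10.5%) and 0 higher (15.7%). Car4, of the proximal tubule brush border, read 6.60 and 6.58 in knockout, 6.78 in pool 1 and 9.07 in pool 2, and Car14 6.52, 6.56, 6.75 and 8.22. Both were high in pool 2 alone, and Car14 was well above background on only 1 of the knockout arrays, having entered through the wild-type arrays. Car13 and Car7 differed by -0.17 ± 0.13 and -0.16 ± 0.13 (limma adjusted p = 0.805 for each). Of 6 other bicarbonate transporter genes tested, 2 were called higher against pool 2 (all genes, 15.7%) and 1 lower (10.5%). Slc4a2, a widely expressed exchanger gene, read 10.07 and 10.03 in knockout, 9.78 in pool 1 and 9.53 in pool 2, and the sulfate and bicarbonate carrier gene Slc26a1 6.49, 6.64, 6.77 and 8.54. Slc26a6, a chloride and bicarbonate exchanger gene, differed by -0.20 ± 0.14 (limma adjusted p = 0.805).

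Genes of ammonium and proton handling, which feed the transport by Rhcg, were called lower against pool 2 in 4 of 8 tested (all genes, 10.5%) and higher in 2 (15.7%). Pck1, of ammonia-linked glucose synthesis in the proximal tubule, read 7.27 and 7.05 in knockout, 7.77 in pool 1 and 10.36 in pool 2. Glutamate dehydrogenase, from Glud1, read 10.79, 10.73, 11.00 and 12.15. The proton pump gene Atp12a read 8.50 and 8.59 in knockout, 8.41 in pool 1 and 7.85 in pool 2. Of 10 Notch pathway genes tested, 2 were called higher against pool 2, a share near the 15.7% of all genes, and 0 lower (10.5%). Adam10, a protease that cleaves Notch, and the ligand gene Dll1 each differed by -0.15 ± 0.12 (limma adjusted p = 0.805), and the median of the 10 was 0.03.

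Markers of other cells moved with these results, and their part in them was not tested. Against pool 2, 7 of 7 proximal tubule and 7 of 8 loop and distal tubule genes were called lower, beside 10.5% of all genes, with medians of -2.49 and -0.77, against -0.30 and -0.16 for pool 1. The sodium phosphate carrier gene Slc34a1 read 8.41 and 7.75 in knockout, 9.11 in pool 1 and 12.29 in pool 2, the gluconeogenic enzyme gene Fbp1 10.05, 9.44, 10.50 and 13.90, and the loop gene Umod 9.64, 9.56, 9.97 and 12.06. In each, pool 2 stood apart by over 1 log2 unit, as it did in Car15. Principal cell genes were called higher in 6 of 12 (all genes, 15.7%) and lower in 1 (10.5%) against pool 2, with medians of 0.34 against pool 1 and 0.45 against pool 2. The water channel gene Aqp2 read 12.34 and 12.57 in knockout, 11.93 in pool 1 and 11.50 in pool 2. Sgk1, an aldosterone-induced kinase gene, read 10.39, 10.63, 9.37 and 9.02, and the sodium channel subunit gene Scnn1g 10.44, 10.65, 10.18 and 9.60, so that all 3 had the order of Rhcg. The potassium channel gene Kcnj1, which the loop of Henle also expresses, went the other way, at 8.85, 8.65, 8.93 and 10.84. Red cell genes gave 4 calls higher (all genes, 15.7%) and 0 lower (10.5%) of 7 against pool 2, with medians of -0.10 against pool 1 and 0.55 against pool 2.

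**Figure D4:**
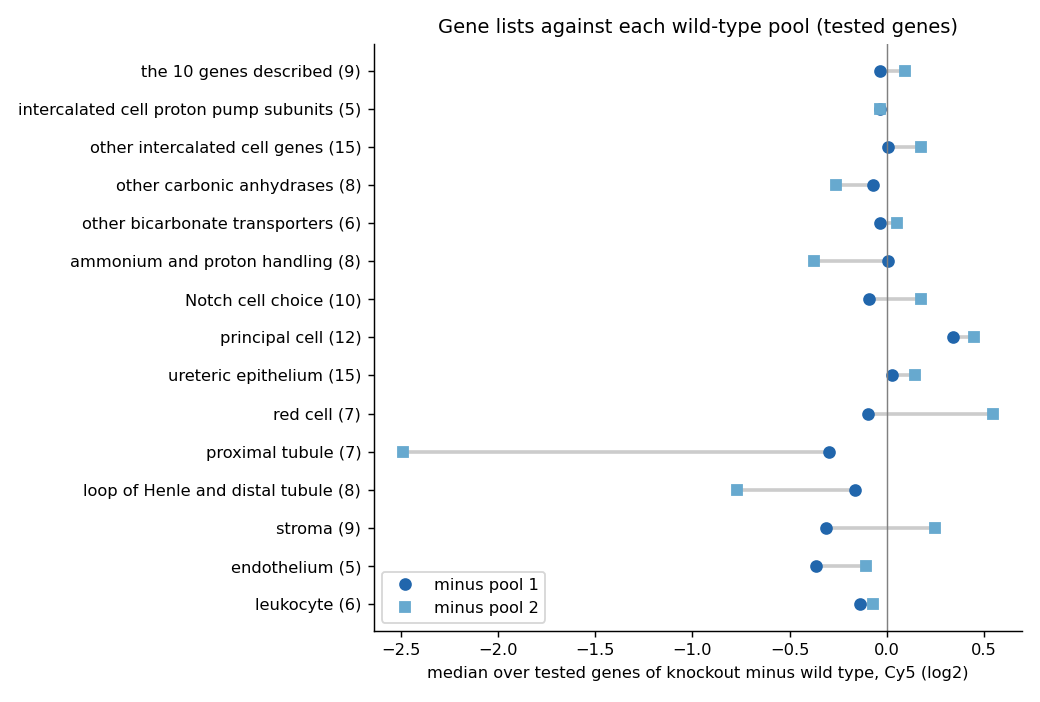
Median over the tested genes of each list of knockout minus wild type in Cy5 (log2), against pool 1 (circles) and pool 2 (squares), with the number of tested genes in brackets. The median of the acid-base genes lies near 0 against both pools, at -0.04 and 0.09, whereas that of proximal tubule genes lies at -0.30 and -2.49. A median covers only genes above background.

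Genes whose levels ran most like those of Foxi1 and Slc4a1 over the 7 channels were sought among 8230 named genes well above background in all 7, by Euclidean distance between levels centred on each gene's mean. For Foxi1 these were Igtp (distance 0.0891), 2700062C07Rik (0.129), Snx19 (0.130) and Baz1b (0.133), beside a median distance of 0.481. For Slc4a1 they were Lyz2 (0.154), Plekho1 (0.157), Calm3 (0.186) and Ranbp1 (0.187), beside a median of 0.673. Lyz2 is a lysozyme gene of macrophages and granulocytes. None was another gene of the group. The channels share arrays, pools and dyes, so nearness is a description of these 7 values.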

How the data were processed

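The scanner software was Agilent Feature Extraction 10.7.3.1, per the file headers. The deposited values are intensities in Cy3 and Cy5 (median over pixels, with local background) and a log10 ratio of Cy5 over Cy3 processed signals, per the file headers. The steps from cells to labelled RNA (0.5 µg per reaction) are per the labels' protocols. Of 45018 spots 43379 were not controls, and none was saturated. Accessions named 22951 of 41174 probes through a RefSeq table of GRCm38.p6. Here, normexp background correction (offset 50) and quantile normalization over non-control spots were applied. Each gene entered by its brightest probe that the software marked well above background in both Cy5 channels of either genotype. A dark patch of 390 spots on the pool 1 self array was left out. Two-sided tests were run in R 4.3.3 with limma 3.58.1, p-values were adjusted over all genes by Benjamini-Hochberg, and the threshold was 0.05 (statmod 1.5.0 for the block). Shared-array ratios were normalized by loess.

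The plan for the 7 channels had array as a random block. On simulated independent data, with no array effect, that block called more unchanged genes than the fit without it. The values in the text therefore come from the fit without the block, a departure from the plan. The block correlation in the real channels was -0.609, so the simulation cannot decide which fit suits them. The 10 genes, the gene lists and the naming rule (genes without overlap, up to 4 per list with the largest difference, the 3 brightest red cell genes, and the 4 nearest to Foxi1 and Slc4a1) were chosen with earlier results of these data known. Genes of the pathway lists named outside that rule (Atp6v0a4, Atp6v1g3, Atp6v1c2, Alas2, Klf1, Sptb, Avpr2, Aqp4 and Hoxb7) were chosen after their values were seen, and some genes that the rule names, most of them markers of other cell types, are not reported here. The number of arrays limits the precision of all values.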

Additional observations from a re-analysis of the deposited data

Results flagged for a closer look

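For 6 genes the difference from knockout depends on the wild-type pool, because the pools differed from each other at a limma adjusted p under 0.05 over the 7 channels. As pool 2 minus pool 1 (log2), Car15 stood at 2.36 (adjusted p = 1.17e-10), Rhcg at -0.61 (1.11e-04), Slc4a1 at -0.48 (7.35e-04), Dmrt2 at -0.36 (0.00357), Car2 at -0.35 (0.00432) and Slc26a4 at -0.31 (0.00643). These tests cover channels of 1 RNA pool each, not animals. The order of the pools was the same in Cy5 alone and in Cy3 alone for all 6, at 2.31 and 2.40 for Car15, -0.52 and -0.67 for Rhcg, -0.50 and -0.45 for Slc4a1, -0.25 and -0.45 for Dmrt2, -0.42 and -0.29 for Car2 and -0.31 and -0.31 for Slc26a4. The 6 genes were called over these same channels, so the values by dye are no separate support. What set the pools apart was not tested.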

How the results depend on the processing

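Over 14 alternatives the Rhcg and Dmrt2 differences stayed positive, at 0.62 to 1.38 and 0.27 to 0.81, and the count of genes called in Cy5 stayed at 0 except where named here. With the wild-type pool number as a replicate block it was 0, and the Rhcg difference stayed at 0.88. Deviations of same-numbered arrays correlated at r = 0.037 across genes. Whether these arrays share more than a number was not tested. With 7 channels, dye as a covariate and array as a random block, 5191 of 16149 genes were called. Rhcg (0.89), Dmrt2 (0.27) and Car15 (-0.59) were among them. Channels of the same pool count as replicates in that fit. In the pool comparison on simulated independent data, the block gave 387 false calls, against 16 without it. Rhbg (0.045), Car2 (-0.016) and Car12 (0.0095) changed sign in the 7-channel fit. Under median centring the median of the 9 genes was 0.51, and Foxi1 (0.17), Rhbg (0.53), Slc4a1 (0.31), Slc26a4 (0.26) and Car12 (0.51) changed sign. Car2 did so with processed signals (-0.13), as did Foxi1 (0.13), Slc4a1 (0.020) and Car2 (-0.12) with log ratios of all 4 arrays. Those log ratios include knockout array 1, where Cy3 was nearly empty and the SD of the ratio over all genes was 0.0648. Leaving out each array in turn gave 0 to 4197 called genes, 4 to 7 of the 9 without overlap (beside 56.9% to 85.7% of all genes) and a median of -0.13 to 0.09. The ranges were -0.17 to 0.064 for Foxi1, -0.12 to 0.092 for Rhbg, -0.38 to 0.23 for Slc4a1, -0.21 to 0.23 for Car2, -0.066 to 0.062 for Car12 and -1.97 to 0.61 for Car15. Between the pools, 7881 genes were called, with 10760 under the random block that the plan named, 7911 without the filter, 6242 to 7277 with a channel left out and 1 under median centring, where the median of all genes was -0.22, Car12 changed sign (-0.34) and the 6 calls of the group were lost. Without Cy5 of either self array the Rhbg value was 0.028 and that of Car2 -0.29 (limma adjusted p = 0.0547). Both omissions leave the same difference, that in Cy3. With processed signals the shared-array ratios of Dmrt2, Foxi1, Slc26a4 and Car15 moved to 1.14, 0.40, -0.51 and -2.39. Where no cause is given, the cause was not tested. Foxi1 and Hmx2 are limited by signal over background, and all values by 2 arrays per genotype.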
